A study of Mus musculus with 96 samples.

Results

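The interferon response genes described here are a list of 38 gene symbols out of 19505 named genes on the array. They were chosen by name, with earlier results of these data known. A probe set carried the symbol of 36 of the 38, and Gbp5 and Ifi44 were matched to none. The genes were measured on Clariom S Mouse arrays in the brains of mice whose middle cerebral artery had been blocked by a filament for a time (MCAO), or that had sham surgery, the same operation without the filament. The filament was withdrawn after 90 min and tissue was taken 30 min later, 2 h after onset. The slice at the level of bregma was split into its right side, which had held the filament (ipsilateral, IP), and its left side (contralateral, CL), and each hemisphere of a mouse gave 1 array.

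Of 48 mice in the series, 34 were used (23 MCAO and 11 sham). The diabetic mice were BKS-Leprdb/db/JOrlRj males aged 8-12 weeks, which lack a working leptin receptor (8 MCAO and 4 sham). The old mice were C57Bl/6j males aged 18 months (8 MCAO and 4 sham). The male mice were C57Bl/6j males aged 8-12 weeks (7 MCAO and 3 sham). All mice, sham mice included, received buprenorphine and isoflurane, and all brains were perfused with saline. Diabetic mice differed from the other mice in strain background, each group had its own filament type, and male mice were run in an earlier set of experiments than the others, so these factors cannot be told apart from diabetes and age. The 24 female arrays, whose hemisphere labels are in doubt, and 2 male mice with poor arrays (1 MCAO and 1 sham by their labels) were not used. The study's text calls both of the male mice it removed ischemic, so that a surgery label may be wrong among the male mice, and every comparison of male MCAO with male sham mice rests on these labels. Values are log2 signals. Each group was normalized on its own, so that levels were compared only within a group, and between groups only the difference IP minus CL of each mouse. Neuronal markers had a median level above that of 98.2% of all genes in male mice. The listed genes were dim, with a median percentile among all genes of 33.3 in diabetic, 37.8 in old and 30.9 in male mice.

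Interferons are secreted by cells that sense foreign or misplaced nucleic acid. Type I interferons signal through the kinases JAK1 and TYK2 to a complex that holds STAT2 and IRF9 and binds the interferon-stimulated response element in promoters, whereas the response to interferon gamma runs through the gamma-activated site. The genes switched on in this way encode proteins that restrict viruses, and in the brain microglia, astrocytes, endothelial cells and neurons can all express them.

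The promoters show how far the listed genes share these binding letters. RefSeq promoter windows (GRCm38.p6, 250 bases before to 50 after the start of the gene) covered 27 of the 36 measured genes. The response element was searched as 2 runs of GAAA with any 2 bases between them, and the gamma-activated site as TTCNNNGAA, on both strands. The response element was found in 15 of the 27 genes (55.6%), against 3.99% of all 27025 genes with a window. TTCNNNGAA was found in 8 of 27 (29.6%), against 9.55% of all genes. Bst2, Gbp7, Igtp and Oas1a held both motifs, and the matches to the 2 motifs overlapped in position in Bst2 only. A form of the NF-kappaB site, GGG and TTTCC with any 2 bases between them, was found in 0 of 27, against 1.89% of all genes. In the 15 genes with the response element the median difference IP minus CL after MCAO was -0.02 on the log2 scale, and in the 12 without it 0.02. Stretches of 120 bases are printed for Isg15 and Ifit1, which define the response, for Gbp2, one of the genes that varied most between mice, for Irf1, which had the smallest p in the 3 groups combined, and for Plscr1 and Cmpk2, which passed the test in diabetic mice. Capitals mark the matches, read on either strand: the response element in Isg15 (3 overlapping), Ifit1 (2) and Gbp2 (1), and TTCNNNGAA in Irf1 and Plscr1. Cmpk2 had none of these matches, and its stretch begins just before the annotated start of the gene (26469117) and lies mostly after it.
Isg15 chr4:156200827-156200946, minus strand: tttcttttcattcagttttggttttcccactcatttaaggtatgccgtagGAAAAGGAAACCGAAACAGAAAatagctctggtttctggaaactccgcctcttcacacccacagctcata
Ifit1 chr19:34640735-34640854, plus strand: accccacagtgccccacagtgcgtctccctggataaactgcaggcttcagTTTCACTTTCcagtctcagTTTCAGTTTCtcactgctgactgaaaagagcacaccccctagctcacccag
Gbp2 chr3:142620554-142620673, plus strand: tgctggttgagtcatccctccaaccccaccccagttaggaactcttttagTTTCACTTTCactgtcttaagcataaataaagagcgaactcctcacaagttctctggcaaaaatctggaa
Irf1 chr11:53769874-53769993, plus strand: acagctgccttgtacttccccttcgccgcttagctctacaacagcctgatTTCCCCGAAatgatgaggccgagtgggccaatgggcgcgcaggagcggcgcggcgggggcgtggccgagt
Plscr1 chr9:92250054-92250173, plus strand: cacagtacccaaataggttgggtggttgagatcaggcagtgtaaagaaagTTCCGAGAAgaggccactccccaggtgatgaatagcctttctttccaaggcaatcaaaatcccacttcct
Cmpk2 chr12:26469115-26469234, plus strand: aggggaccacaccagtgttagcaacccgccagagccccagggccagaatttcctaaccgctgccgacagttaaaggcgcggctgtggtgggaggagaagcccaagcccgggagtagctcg

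The first question was whether the listed genes differed between the hemispheres 2 h after MCAO. No listed gene passed the test, and the estimates lay evenly on both sides of 0. With the mean of the 3 groups' MCAO differences as the contrast (limma, Benjamini-Hochberg adjustment over 19505 genes), 0 of 36 listed genes passed an adjusted p of 0.05, against 3.49% of all genes. At an unadjusted p under 0.05 there were 4 of 36, 1 higher and 3 lower in IP, against 16.9% of all genes. Fos, an immediate early gene, was higher in IP by 2.08 on the log2 scale in the same fit (SE 0.178, adjusted p = 9.01e-09), and by 0.02 in sham mice. Of the 36 listed differences 18 were above 0 and 18 below, they ran from -0.27 to 0.25, and their median was -4.55e-06, against 0.0006 over all genes. All 36 intervals (95%) lay within 0.5 log2 units of 0, which is 1.41-fold, and 20 lay within 0.25, which is 1.19-fold. These intervals belong to the mean of the 3 groups, in which opposite values of single groups can cancel. Fitted within a group, 18 of 36 MCAO intervals lay within 0.5 in diabetic, 26 in old and 20 in male mice. For MCAO minus sham over the 3 groups it was 22 of 36. In tissue samples of this kind, fewer cells of a type and less RNA per cell cannot be told apart.

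In sham mice 0 of 36 listed genes passed, against 0% of all genes, and 3 had an unadjusted p under 0.05, against 4.34% of all genes. The median over the list was 0.06 in sham mice. For MCAO minus sham 0 of 36 passed, against 0.169% of all genes. At an unadjusted p under 0.05 were 9.17% of all genes and 2 listed genes, Gbp2 (-0.40, interval -0.71 to -0.08, adjusted p = 0.409) and Ifi27 (-0.30, interval -0.57 to -0.03, adjusted p = 0.485). The median over the list was -0.06, with 25 of 36 genes below 0, and that over all genes was 0.0006.

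**Figure D1:**
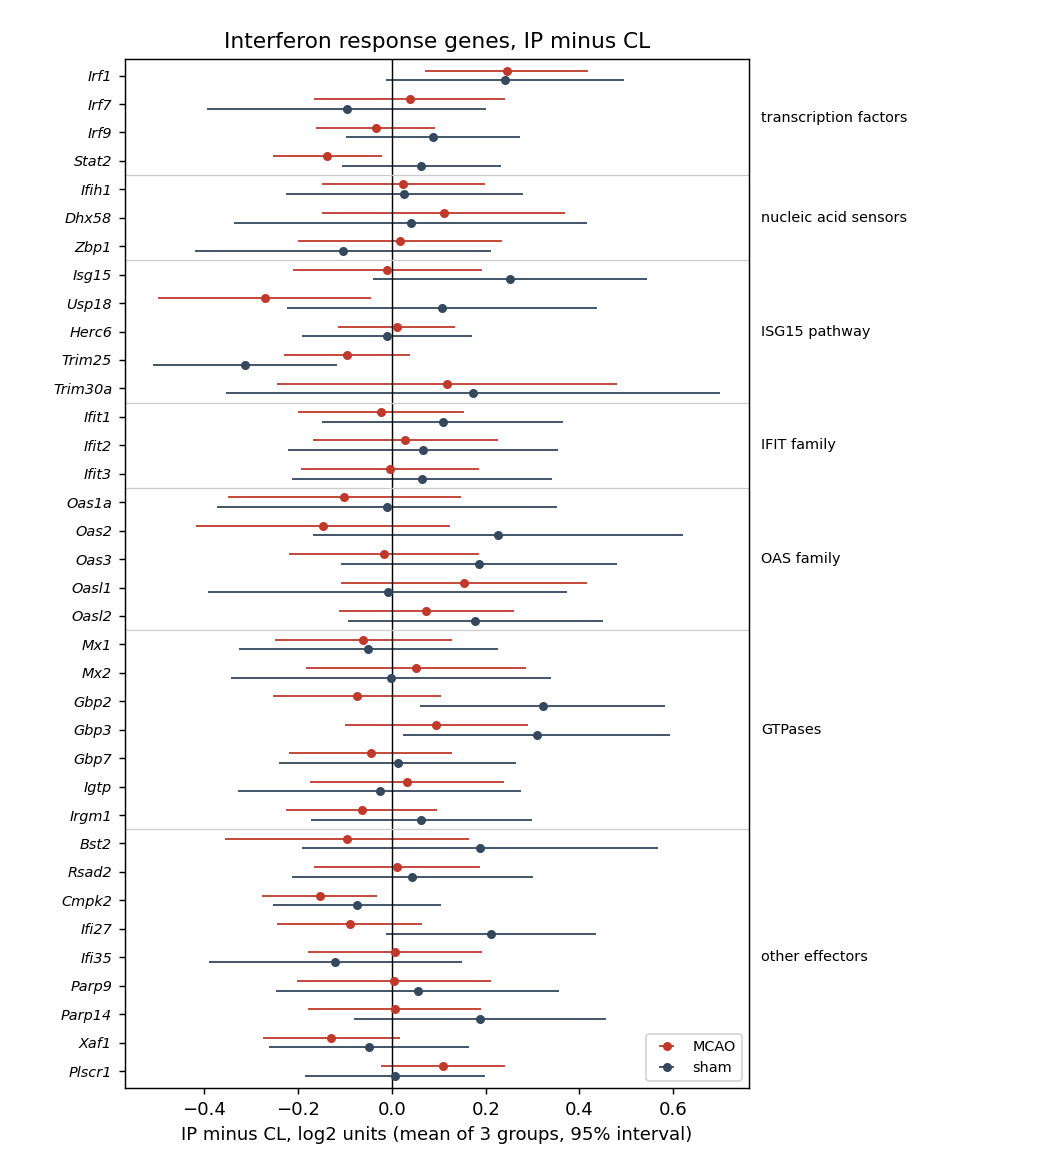
Difference IP minus CL (log2 units) of the 36 measured interferon response genes, ordered by role, as the mean over the diabetic, old and male groups in MCAO mice and in sham mice. Points are limma estimates and bars are 95% intervals: every MCAO interval lies within 0.5 of 0, and Irf1 lies at 0.25 in MCAO and at 0.24 in sham mice.

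Irf1, a transcription factor that is an early target of interferon gamma and of other inflammatory signals, had the smallest p of the list. Its difference IP minus CL had a lowest, median and highest value of -0.70, 0.26 and 1.09 in the 23 MCAO mice, and of -0.13, 0.19 and 0.63 in the 11 sham mice. It was higher in IP in 15 of 23 MCAO and in 8 of 11 sham mice, with overlapping ranges. The estimate was 0.25 in MCAO mice (SE 0.0856, interval 0.07 to 0.42, adjusted p = 0.111) and 0.24 in sham mice (interval -0.01 to 0.50). MCAO minus sham was 0.00 (interval -0.30 to 0.31). Without male MCAO mouse 7, the adjusted p in MCAO mice was 0.0422. Stat2, a subunit of the factor that binds the response element, was lower in IP in 16 of 23 MCAO and in 5 of 11 sham mice, with an estimate of -0.14 in MCAO mice (interval -0.25 to -0.02, adjusted p = 0.194). Irf7, which amplifies type I interferon production, stood at 0.04 (interval -0.17 to 0.24) and Irf9, the DNA-binding partner of STAT2, at -0.03 (interval -0.16 to 0.09). The 3 nucleic acid sensors had estimates of 0.11 (Dhx58, interval -0.15 to 0.37), 0.02 (Ifih1) and 0.02 (Zbp1), and none had an unadjusted p under 0.05.

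Isg15 encodes a ubiquitin-like protein that is attached to other proteins. Its difference had a lowest, median and highest value of -1.03, -0.03 and 0.85 in MCAO mice, and of -0.30, 0.22 and 0.69 in sham mice. It was higher in IP in 11 of 23 MCAO and in 10 of 11 sham mice. The estimate was -0.01 in MCAO mice (interval -0.21 to 0.19) and 0.25 in sham mice (interval -0.04 to 0.55), and MCAO minus sham was -0.26 (interval -0.62 to 0.09). Usp18, which removes ISG15 from proteins and dampens the type I receptor, was lower in IP in 17 of 23 MCAO and in 4 of 11 sham mice. Its estimate was -0.27 in MCAO mice (interval -0.50 to -0.04, adjusted p = 0.19). Trim25, a ubiquitin ligase of the RNA sensing pathway, stood at -0.10 in MCAO mice and at -0.31 in sham mice (unadjusted p = 0.0027 and adjusted p = 0.9998 in sham mice). Herc6, the mouse ligase for ISG15, stood at 0.01 in MCAO mice. Trim30a stood at 0.12 with an interval of -0.25 to 0.48 and varied widely, with differences of single MCAO mice from -1.54 to 2.00.

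The IFIT proteins bind viral RNA, and their genes are among the most inducible of the response. The estimate in MCAO mice was -0.02 for Ifit1 (interval -0.20 to 0.15), 0.03 for Ifit2 (interval -0.17 to 0.23) and -0.004 for Ifit3 (interval -0.20 to 0.19). Ifit1 was higher in IP in 11 of 23 MCAO and in 6 of 11 sham mice. The OAS enzymes make the messenger that activates ribonuclease L, and OAS-like proteins resemble them. Their 5 estimates ran from -0.15 (Oas2, interval -0.42 to 0.12) to 0.15 (Oasl1, interval -0.11 to 0.42), with Oas1a at -0.10, Oas3 at -0.02 and Oasl2 at 0.07.

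Of the 7 GTPases, 3 were above and 4 below 0 in MCAO mice, and none had an unadjusted p under 0.05. Gbp2 and Gbp3, guanylate-binding proteins that interferon gamma induces, stood at -0.07 and 0.09 in MCAO mice, and at 0.32 and 0.31 in sham mice (adjusted p = 0.9998 for both in sham mice). Gbp7, Irgm1, Igtp, Mx1 and Mx2 lay between -0.06 and 0.05. Among the 9 other effectors, Xaf1, a proapoptotic protein, stood at -0.13 (interval -0.28 to 0.02, adjusted p = 0.372). Bst2, which tethers virions to the cell surface, stood at -0.10 (interval -0.36 to 0.16), and the antiviral enzyme Rsad2 at 0.01. Plscr1 stood at 0.11 (interval -0.02 to 0.24, adjusted p = 0.406) and Ifi27 at -0.09 (interval -0.24 to 0.06), whereas Ifi35, Parp9 and Parp14 lay between 0.00 and 0.01. Cmpk2, a mitochondrial nucleotide kinase, stood at -0.15 (interval -0.28 to -0.03, adjusted p = 0.165) and was lower in IP in 17 of 23 MCAO mice.

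Fitted within diabetic mice, 2 of 36 listed genes passed, 1 higher and 1 lower in IP, against 2.29% of all genes. At an unadjusted p under 0.05 there were 5 of 36, against 21% of all genes, and the median over the list was -0.05. Plscr1 encodes a phospholipid scramblase of the plasma membrane with antiviral activity (gene at chromosome 9, 92250194 to 92272561). Its difference IP minus CL was 0.73, 0.84, 0.38, 0.49, 0.35, 1.37, 0.31 and 0.76 in the 8 diabetic MCAO mice, against 0.39, 0.23, 0.15 and -0.17 in the 4 diabetic sham mice. It was higher in IP in 8 of 8 MCAO and in 3 of 4 sham mice, and the ranges overlapped. The levels were 4.65 ± 0.36 in IP and 4.00 ± 0.49 in CL of MCAO mice (SD, n = 8). The estimate was 0.65, or 1.57-fold (SE 0.113, interval 0.41 to 0.89, adjusted p = 0.0141). Sham mice averaged 0.15 ± 0.24 (SD, n = 4), and MCAO minus sham was 0.50 (interval 0.08 to 0.92, adjusted p = 0.444).

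Cmpk2 was lower in IP (gene at chromosome 12, 26469117 to 26479837). Its difference was -0.36, -0.69, -0.07, -0.70, -0.03, -0.70, -0.67 and -0.23 in the 8 diabetic MCAO mice, against -0.12, -0.04, -0.08 and -0.30 in the 4 diabetic sham mice. All 12 mice lay below 0 and the ranges overlapped. Cmpk2 and Ifi27 lie among the probe sets whose rows were displaced in the diabetic and old tables and were moved back, and Plscr1 does not. The levels were 8.10 ± 0.23 in IP and 8.53 ± 0.29 in CL of MCAO mice (SD, n = 8). The estimate was -0.43, a ratio of 0.743 (SE 0.0948, interval -0.63 to -0.23, adjusted p = 0.0373), and MCAO minus sham was -0.29 (interval -0.65 to 0.06, adjusted p = 0.568). The call was lost without MCAO mouse 1, 2, 4, 6 or 7 or sham mouse 1, 2 or 3, with an adjusted p of at most 0.101.

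Ifi27, a small membrane protein that type I interferon induces strongly, was lower in IP in 8 of 8 diabetic MCAO mice and higher in IP in 4 of 4 diabetic sham mice. Its difference had a lowest, median and highest value of -1.32, -0.47 and -0.01 in MCAO mice, against 0.46, 0.05, 0.60 and 0.40 in the 4 sham mice. The estimate was -0.54 in MCAO mice (interval -0.85 to -0.23, adjusted p = 0.0606). For MCAO minus sham 0 of 36 listed genes passed in diabetic mice, against 0% of all genes, with 3 at an unadjusted p under 0.05, against 9.8% of all genes. Ifi27 was among these (-0.92, interval -1.45 to -0.39, adjusted p = 0.336). Mx2, a dynamin-like GTPase, stood at 0.39 in diabetic MCAO mice (adjusted p = 0.132), and Irf1 at 0.34 (interval 0.06 to 0.62, adjusted p = 0.156, higher in IP in 6 of 8).

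Markers of other cells moved in the same comparison. Of all genes 2.29% passed in diabetic MCAO mice, and of 7 neutrophil markers 3 did. All 3 were higher in IP, by 1.51 (S100a8, adjusted p = 0.0342), 1.41 (S100a9, adjusted p = 0.0103) and 1.12 (Retnlg, adjusted p = 0.0236). The mean difference over the 7 markers was 0.08 to 1.06 in diabetic MCAO mice and -0.26 to 0.69 in diabetic sham mice. Of 8 neuronal markers 2 passed, both lower in IP, by -0.34 (Tubb3) and -0.33 (Rbfox3), and of 7 endothelial markers 1 passed, Flt1, higher by 0.44. The mean difference over 6 choroid plexus markers ran from -1.94 to 2.60 in diabetic MCAO mice and from -0.54 to 0.21 in diabetic sham mice. Other lists averaged 0.22 (oligodendrocytes), 0.21 (monocytes), 0.17 (lymphocytes), 0.03 (astrocytes) and -0.02 (microglia) in diabetic MCAO mice. In diabetic sham mice these averages were 0.09, 0.16, -0.09, 0.09 and 0.09, in the same order. A single red blood cell marker averaged 0.56 in diabetic MCAO and -0.03 in diabetic sham mice. The part of these cells in the values of Plscr1, Cmpk2 and Ifi27 was not tested.

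**Figure D2:**
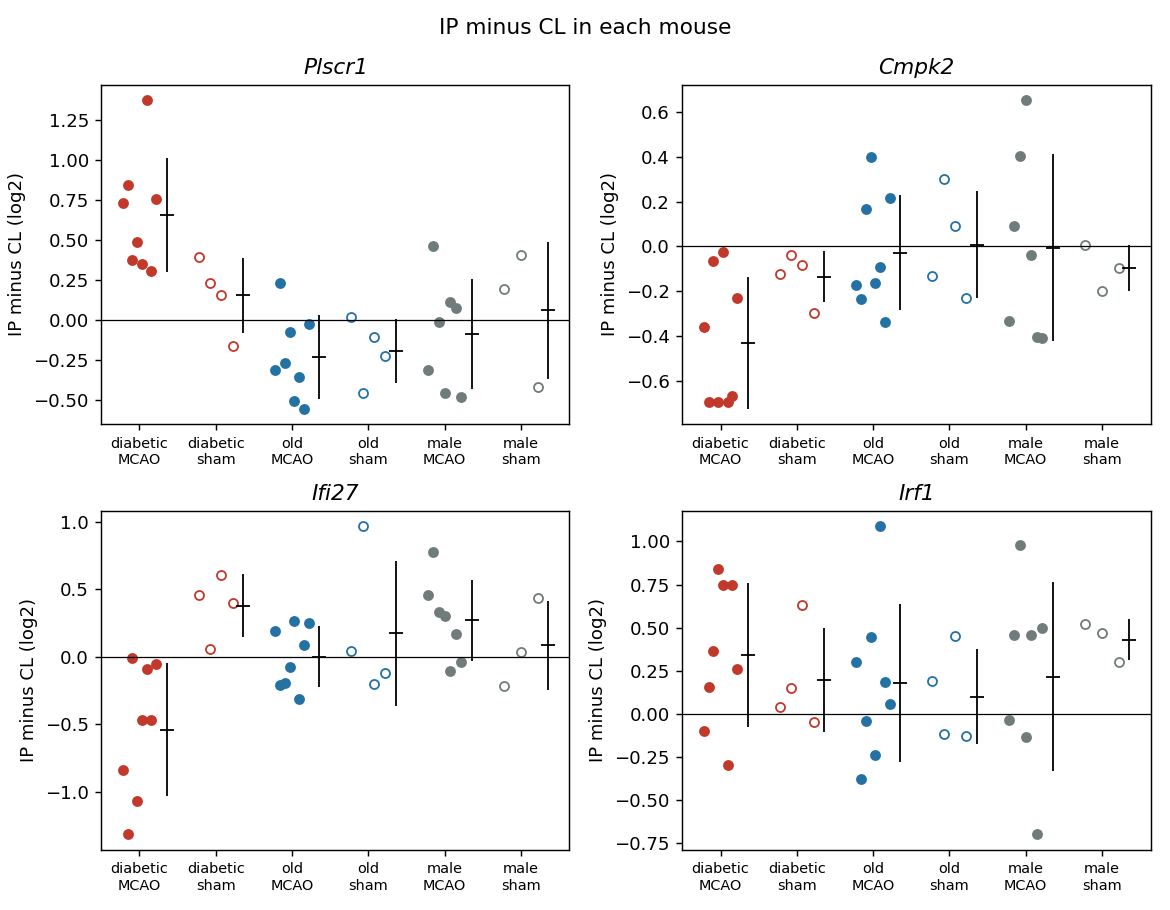
Difference IP minus CL (log2 units) of Plscr1, Cmpk2, Ifi27 and Irf1 in each mouse of the diabetic, old and male groups. Filled points are MCAO mice, open points sham mice, and the bars beside them the mean ± SD; all 8 diabetic MCAO mice lie above 0 for Plscr1 and below 0 for Cmpk2 and Ifi27.

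Whether the MCAO difference itself differed between groups was tested on the differences of all mice. For diabetic minus male, 2 of 36 listed genes passed, against 0.62% of all genes, and 7 had an unadjusted p under 0.05, against 14.8% of all genes. The difference of Plscr1 was larger in diabetic than in male MCAO mice by 0.74 (interval 0.41 to 1.07, adjusted p = 0.029). Its mean was 0.65 ± 0.36 in diabetic mice (SD, n = 8) and -0.09 ± 0.35 in male mice (SD, n = 7), whose lowest, median and highest values were -0.48, -0.01 and 0.46. Plscr1 was dim in male MCAO mice, at 2.18 to 2.92 on single arrays, against medians of 4.79 to 4.94 over male arrays. In diabetic MCAO mice it lay at 3.24 to 5.22, against medians of 6.662 to 6.975 over diabetic arrays. The part of dim signals in this comparison was not tested. The difference of Ifi27 was lower in diabetic than in male mice by -0.81 (interval -1.19 to -0.43, adjusted p = 0.0395). Its mean was -0.54 ± 0.49 in diabetic mice (SD, n = 8) and 0.27 ± 0.30 in male mice (SD, n = 7), where it was higher in IP in 5 of 7. Trim25, with 0.61, had an adjusted p of 0.0712.

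For diabetic minus old, 1 of 36 passed, against 0.0461% of all genes, and 4 had an unadjusted p under 0.05, against 12.9% of all genes. The gene was Plscr1, with 0.89 (interval 0.57 to 1.20, adjusted p = 0.0165). In old MCAO mice its lowest, median and highest values were -0.55, -0.29 and 0.23, and it was lower in IP in 7 of 8. The lowest diabetic MCAO mouse, at 0.31, lay above all 8 old mice and below the highest male mouse. In sham mice the Plscr1 estimate was -0.19 in old (interval -0.46 to 0.08), 0.06 in male and 0.15 in diabetic mice. For Plscr1, MCAO minus sham was -0.04 in old (interval -0.37 to 0.29) and -0.15 in male mice (interval -0.65 to 0.35). The comparisons between groups did not subtract the differences of sham mice. The comparisons with male and with old mice share the diabetic mice. For old minus male, 0 of 36 passed, against 0% of all genes, and 4 had an unadjusted p under 0.05, against 3.69% of all genes. Leaving out 1 mouse at a time, Plscr1 kept its call against old mice (adjusted p of at most 0.0483). Against male mice it lost the call without male MCAO mouse 4, 5 or 8 or diabetic MCAO mouse 1, 2 or 6 (adjusted p of at most 0.0681). Ifi27 lost the call against male mice without male MCAO mouse 1, 2, 4, 5, 7 or 8 or diabetic MCAO mouse 1, 2 or 4 (adjusted p of at most 0.103).

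In old MCAO mice 0 of 36 listed genes passed, against 0% of all genes. At an unadjusted p under 0.05 were 7.11% of all genes and 2 listed genes, Usp18 (-0.49, interval -0.89 to -0.09, adjusted p = 0.572) and Plscr1 (-0.23, interval -0.43 to -0.04, adjusted p = 0.577). In male MCAO mice 0 of 36 passed, against 0.159% of all genes, and 7 had an unadjusted p under 0.05, against 7.16% of all genes. Of these, Irf7 (0.35), Ifi27 (0.27), Irf9 (0.19) and Igtp (0.43) had positive and Trim25 (-0.44), Xaf1 (-0.36) and Usp18 (-0.29) negative differences, and the smallest adjusted p was 0.40 (Trim25). Usp18 was lower in IP in 7 of 7 male MCAO mice and in 1 of 3 male sham mice. In sham mice 0 of 36 passed in each group, against 0% of all genes, with 3 diabetic, 3 old and 2 male genes at an unadjusted p under 0.05, against 3.14%, 5.43% and 5.35% of all genes. For MCAO minus sham 0 of 36 passed in old mice and 0 of 36 in male mice, against 0% of all genes in both, with 3 old and 2 male genes at an unadjusted p under 0.05, against 5.92% and 5.93% of all genes.

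The study's methods kept genes with an SD at or above the 75th percentile and called at an adjusted p under 0.25. By that rule 2 of the 23 listed genes kept were called in diabetic MCAO mice (limma), Plscr1 and Ifi27, against 13.8% of all genes kept, and Cmpk2 was not kept. In old MCAO mice 0 of 21 were called, against 1%, and in male MCAO mice 0 of 24, against 1.85%.

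Setting MCAO against sham mice within 1 hemisphere compared levels rather than the sides of a brain. No listed gene passed in any of the 6 fits (limma). In IP the backgrounds were 0.272% of all genes in diabetic, 0.0718% in old and 0.205% in male mice, and 4 diabetic, 2 old and 4 male listed genes had an unadjusted p under 0.05, against 13.6%, 7.32% and 7.37% of all genes. In CL the background was 0% in all 3 groups, and 4 diabetic, 7 old and 1 male gene had an unadjusted p under 0.05, against 4.35%, 4.93% and 4.63% of all genes. In CL of old mice these 7, named after their values were seen, were all higher in MCAO mice: Gbp3 (0.66, adjusted p = 0.755), Irf7 (1.21), Isg15 (0.44), Gbp2 (0.42), Rsad2 (0.35), Gbp7 (0.35) and Irf9 (0.32). The median over the list was 0.15 there, with 28 of 36 genes above 0, and the median over all genes was -0.005. Without old MCAO mouse 7 the median over the list was 0.07. Sham mice were also low: old sham mouse 2 had a mean deviation from the median old mouse of -0.33 in CL and -0.006 in IP. Old sham mouse 3 had -0.19 in CL and -0.21 in IP. Choroid plexus markers were lower in old MCAO than in old sham mice in the same fits: in CL all 6 were below 0, with a median of -2.22 and a range of -3.63 to -1.19, and all 6 had an unadjusted p under 0.05 (smallest adjusted p = 0.925). In IP all 6 were below 0 with a median of -1.92 (smallest adjusted p = 0.579). Their part in the values of the listed genes was not tested.

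Irf7 had the largest of these values. Its CL level had a lowest, median and highest value of 3.97, 5.09 and 5.88 in old MCAO mice, against 4.56, 2.69, 3.84 and 4.31 in the 4 old sham mice, a difference of 1.21 (interval 0.39 to 2.04, adjusted p = 0.925). Its IP level had a lowest, median and highest value of 3.96, 4.73 and 6.29 in old MCAO mice, against 4.38, 3.63, 3.45 and 4.33 in old sham mice, a difference of 1.01 (interval 0.19 to 1.84, adjusted p = 0.575). MCAO and sham mice overlapped in both hemispheres.

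The levels differed between mice of a group. The SD over mice of the level, taken as the mean of IP and CL, was above that of 85.8% of all genes in diabetic, 83.2% in old and 84.1% in male mice for the median listed gene. The 4 largest were Irf7 in old mice (0.84) and Gbp2 (0.68), Gbp3 (0.63) and Igtp (0.61) in male mice. In male mice the same animal was the highest for all 3. Gbp2 stood at 4.75 in IP and 5.13 in CL of male MCAO mouse 1, and the highest other male array was at 3.23. Gbp3 stood at 6.59 and 6.58 in that mouse, and the highest other male array was at 5.55 (a sham mouse). Igtp, an immunity-related GTPase, stood at 5.15 in IP and 5.43 in CL, and the highest other male array was at 4.16.

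Male MCAO mouse 1 was the highest of the 10 male mice in 19 of 36 listed genes, against 9.08% of all genes, and the highest in both hemispheres in 10 of 36, against 1.16%. Its mean deviation from the median male mouse was 0.50 over the list, with 0.46 in IP and 0.55 in CL, and 0.003 over all genes. Among the roles, the GTPases had the highest median deviation (1.42), with Gbp2 at 2.10, Igtp at 1.87, Gbp3 at 1.86, Gbp7 at 1.42 and Irgm1 at 1.10. The other GTPases, Mx1 at -0.01 and Mx2 at 0.39, did not stand above the other male mice. Irf7 (1.33), Ifit3 (1.30), Bst2 (1.11) and Oasl2 (0.81) were also high, whereas the OAS family had a median of 0.10 and the other effectors of 0.02. Oas3, Oas2 and Mx1 were dim in this mouse, with levels of 1.30, 1.84 and 1.99, against medians of 4.79 to 4.94 over male arrays. Cmpk2, with a level of 5.97, had a deviation of -0.03. The part of dim signals in these contrasts was not tested. Genes of MHC class I and antigen processing, which interferons also induce, had a mean deviation of 0.58, and this mouse was the highest male mouse in 8 of the 9, with Tap1 at 1.25. The interferon genes themselves had a mean deviation of 0.05 and the receptors of 0.07. Marker lists deviated by 0.18 (microglia), 0.24 (astrocytes), 0.20 (neutrophils) and -0.04 (lymphocytes), and their part in the result was not tested. Without this mouse, the median over the list for MCAO minus sham in male mice was 0.06 in IP and 0.02 in CL, against 0.16 in IP and 0.05 in CL with it.

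**Figure D3:**
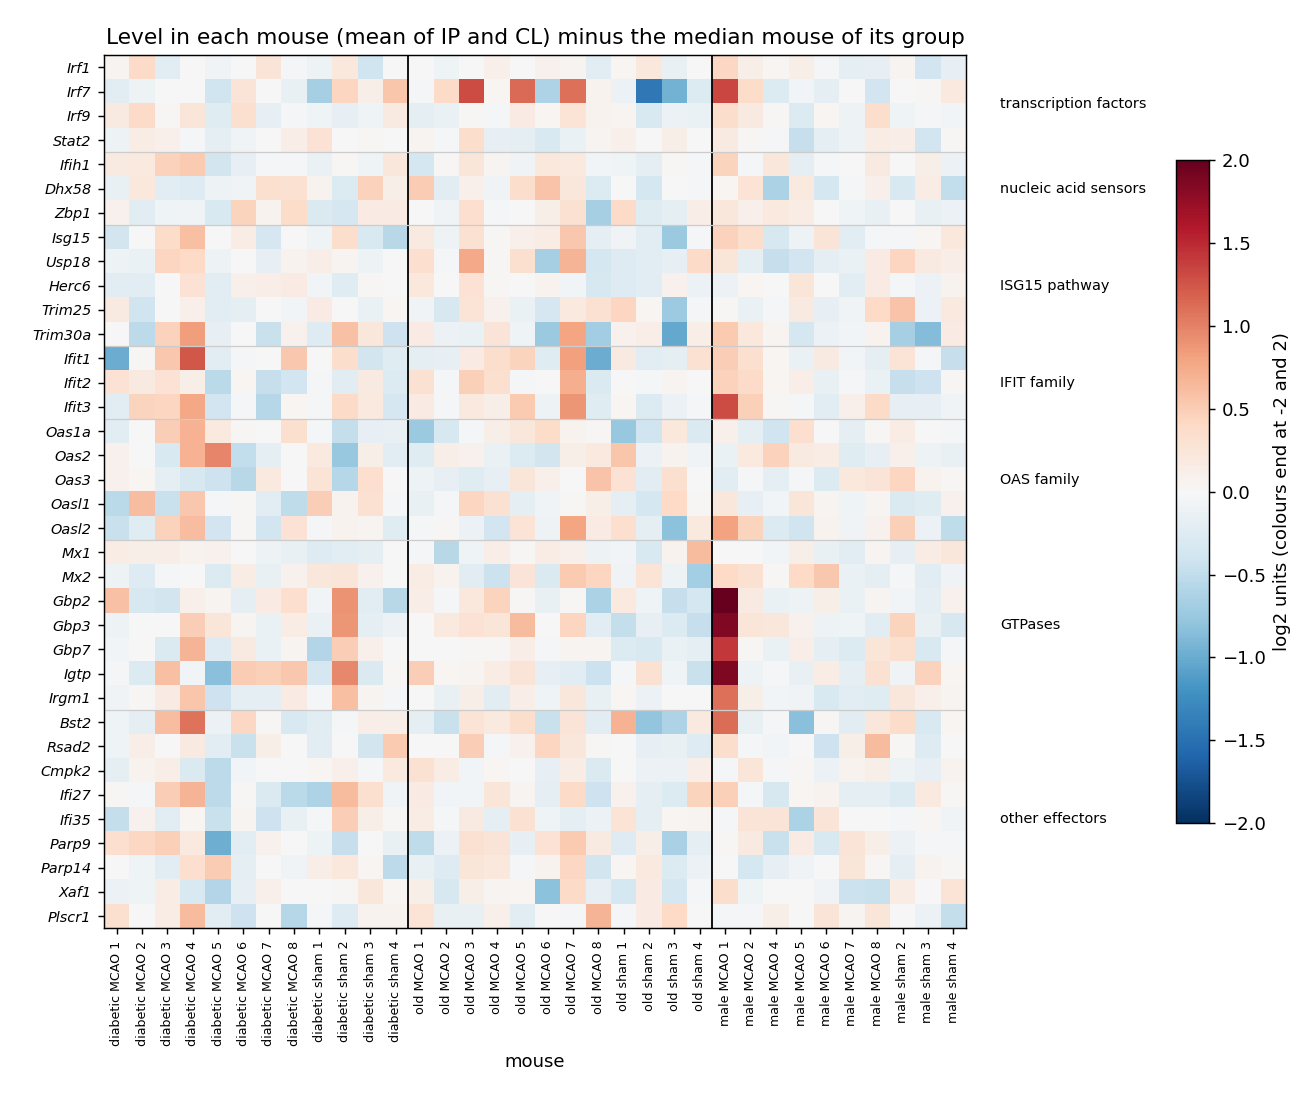
Deviation of each listed gene's level (mean of IP and CL, log2 units) from the median mouse of its group, with 1 column per mouse and 1 row per gene; colours end at -2 and 2. Male MCAO mouse 1 stands out in the rows of Gbp2, Gbp3, Gbp7, Igtp and Irgm1, where Gbp2 reaches 2.10, and not in those of Mx1 (-0.01) and Mx2 (0.39).

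Diabetic MCAO mouse 4 and old MCAO mouse 7 were also high over the list, by 0.32 and 0.30 on average, and more in CL than in IP: diabetic MCAO mouse 4 by 0.17 in IP and 0.48 in CL, and old MCAO mouse 7 by 0.16 in IP and 0.42 in CL. They were the highest of their group in both hemispheres in 3 and 4 of 36 listed genes, against 1.3% and 1.81% of all genes. Diabetic MCAO mouse 4 was the highest diabetic mouse in 12 of 36 listed genes, against 10.3% of all genes, with Ifit1 at 1.25, Bst2 at 1.09, Trim30a at 0.84 and Ifit3 at 0.78. Old MCAO mouse 7 was the highest old mouse in 12 of 36, against 9.75%, with Irf7 at 1.11, Ifit3 at 0.89, Ifit1 at 0.83 and Oasl2 at 0.79. Male MCAO mouse 1, diabetic MCAO mouse 4 and old MCAO mouse 7 had the highest mean deviation over the list in their groups. Their counts of highest genes therefore follow in part from the choice of these mice. The median deviation of the 7 GTPases was 0.10 in diabetic MCAO mouse 4, with Gbp7 at 0.68, Irgm1 at 0.55 and Gbp3 at 0.50, and 0.11 in old MCAO mouse 7, with Mx2 at 0.52 and Gbp3 at 0.43. Choroid plexus markers deviated by 1.08 in diabetic MCAO mouse 4 and by 0.78 in old MCAO mouse 7, and by -0.04 in male MCAO mouse 1. Their part in these levels was not tested.

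**Figure D4:**
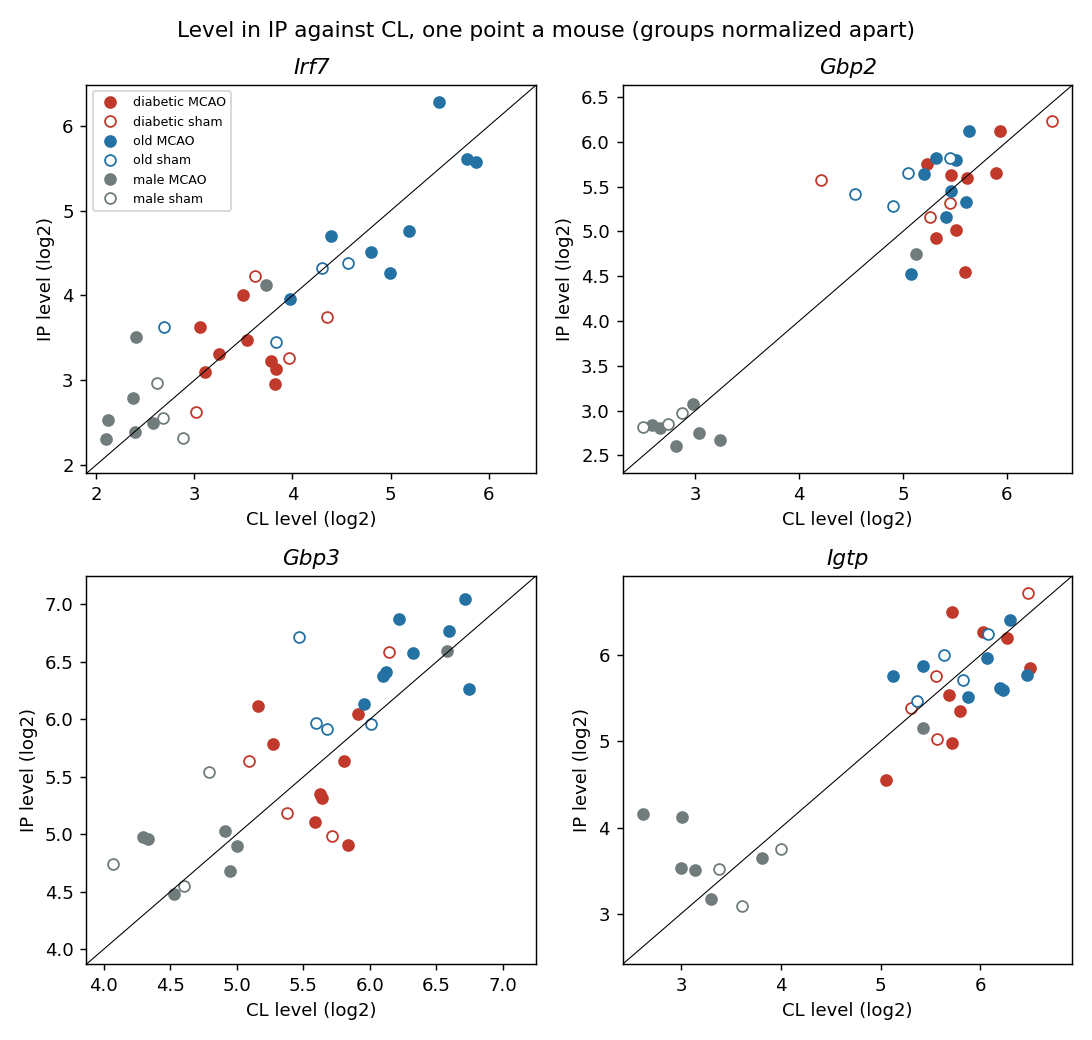
Level in IP against level in CL (log2 units) of single mice for Irf7, Gbp2, Gbp3 and Igtp, the listed genes that varied most between mice; filled points are MCAO mice, open points sham mice, and the line marks equal levels. Male MCAO mouse 1 lies apart from the other male mice in both hemispheres, at 4.75 in IP and 5.13 in CL for Gbp2.

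Of 60 other genes of the pathway, 53 were measured, and 0 passed in any of the 21 comparisons (limma). In MCAO mice of the 3 groups combined, 9 of 53 had an unadjusted p under 0.05, 5 higher and 4 lower in IP, against 16.9% of all genes, a share like that of the pathway genes. The 5 higher were Irf2bp2 (0.16, adjusted p = 0.0556) and Irf2 (0.14), which act as repressors, H2-K1, an MHC class I gene (0.20, adjusted p = 0.0621), Socs3, a feedback inhibitor of cytokine receptors (0.30), and Ifng, which encodes interferon gamma (0.22, adjusted p = 0.287). The 4 lower were Cgas (-0.27), Tlr7 (-0.25) and Sting1 (-0.18), which sense nucleic acid or relay its signal, and the receptor subunit Ifnar1 (-0.08). These 9 were named after their values were seen. Ifnb1, the main type I interferon of brain cells, stood at 0.09 (interval -0.14 to 0.32). All 6 receptor genes lay below 0 and 10 of 11 ligand genes above 0, all within 0.22 of it. Whether these directions differ from those of all genes was not tested.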

How the data were processed

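RNA of both hemispheres was measured on Clariom S Mouse arrays. The deposited log2 values were made by the authors with RMA, separately for each group, and the submitters' processing notes name Affymetrix Expression Console. Of 29129 probe sets, 19572 had 1 gene symbol and 9557 none, and for each of 19505 genes the probe set with the highest mean was taken. Of the diabetic and old values, 8800 probe sets were displaced and were moved up by 3 rows, which raised their correlation with the male values to 0.975 and 0.977, against 0.169 and 0.170 as deposited. Of the 36 listed genes measured, 19 lie in these rows.

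Differences IP minus CL were tested in limma 3.58.1 (R 4.3.3), which was tested on simulated data first, with the mouse as a block and Benjamini-Hochberg adjustment at 0.05. The hemispheres are paired because they come from the same animal, as the labels give: the median correlation of their deviations was 0.0823 to 0.135 in MCAO and 0.116 to 0.176 in sham mice, and below 0 between different mice. Groups were compared on the differences of single mice, and each hemisphere was also compared by surgery within a group. The number of arrays limits the precision. Nothing but the animal defines a replicate, and p-values measure the spread between mice.

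Full values were given for listed genes called in MCAO mice, filled up to 12 by the smallest p over the 3 groups, with Irf1, Irf7, Isg15 and Ifit1 added, for called genes between hemispheres, and for the 4 genes with the largest SD over mice. Members, gene lists and marker lists were chosen with earlier results of these data known. The alternatives were another threshold, the methods' SD filter, leaving out dim genes, another variance model, quantile normalization, averaging all probe sets, keeping the 2 poor male mice, no block, and leaving out each mouse. The 24 female arrays and 4 poor male arrays were left out.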

Additional observations from a re-analysis of the deposited data

Results flagged for a closer look

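Of 105 checks for a single mouse far from the rest of its group, 8 found one, and chance flags about 1 in 20 groups. Gbp2, Gbp3 and Igtp were picked for their large SD over male mice. The rate therefore does not apply to the flags on their levels in male mice, which follow in part from that choice. Male MCAO mouse 1 was far above the other 6 male MCAO mice in the level of Gbp2 (4.94, against 2.71 to 3.03), Gbp3 (6.59, against 4.50 to 4.97) and Igtp (5.29, against 3.24 to 3.73). Diabetic sham mouse 2 was far above the other diabetic sham mice in the level of Gbp3 (6.37, against 5.28 to 5.37). For the difference IP minus CL, Irf7 stood at 1.11 in male MCAO mouse 2 (others -0.08 to 0.41), and Gbp3 at -0.48 in old MCAO mouse 4 (others 0.18 to 0.66). Among sham mice, Gbp2 stood at 1.37 in diabetic mouse 4 (others -0.20 to -0.10), and Trim25 at -0.46 in old mouse 2 (others 0.05 to 0.09).

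Between groups, the MCAO difference of Plscr1 differed by 0.74 for diabetic minus male and by 0.89 for diabetic minus old mice, and that of Ifi27 by -0.81 for diabetic minus male mice, each with an adjusted p under 0.05 in limma.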

How the results depend on the processing

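Of the counts of called genes, 147 values under alternatives stayed within 1.5 times the original and 15 did not. Most of the 21 comparisons had 0 listed genes called, and a count that stayed at 0 is among the 147. The tally therefore says little about the comparisons that had calls. The counts below are given without the share of all genes under the same alternative. They show only how the calls moved, and not whether the list stood out. At an adjusted p under 0.25 (limma) the count was 4 in MCAO mice of the 3 groups combined, 5 in diabetic MCAO mice, 6 for diabetic minus male and 3 for diabetic minus old. With the SD filter and 0.25 it was 2 in MCAO mice combined, and 1 in IP and 1 in CL of old mice. Without dim genes it was 1 in diabetic MCAO mice, 1 for diabetic minus male and 0 for diabetic minus old, with 7, 12 and 12 listed genes tested. After quantile normalization it was 1 for diabetic minus male, and with the 2 poor male mice also 1. Leaving out 1 mouse at a time gave 0 to 1 in MCAO mice combined, 1 to 3 in diabetic MCAO mice, 0 to 3 for diabetic minus male and 1 for diabetic minus old. It also changed the sign of Irf7 (-0.0049 to 0.0726), Isg15 (-0.0511 to 0.036) and Ifit1 (-0.0587 to 0.0045) in MCAO mice combined. Ifi27 passed in diabetic MCAO mice with a trended and robust variance (adjusted p = 0.0223). The cause was not tested. Without the replicate block, 0 listed genes were called in diabetic MCAO mice, for diabetic minus male and for diabetic minus old: the adjusted p of Plscr1 was 0.0574, 0.168 and 0.232. Dim signals and 3 or 4 sham mice a group limit these comparisons.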
